A study of Mus musculus with 8 samples.

Results

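The mitosis genes were 46 genes of the cell division machinery, chosen by symbol and known function, and all 46 were found among the 32726 gene identifiers of the count table. They fell by role into 7 genes of CDK1, its cyclins and other mitotic kinases, 4 of the anaphase-promoting complex pathway and its substrates, 4 of the spindle assembly checkpoint, 7 of the centromere and kinetochore, 4 chromosomal passenger proteins, 8 spindle motors and assembly factors, 6 cytokinesis factors and 6 genes of chromosome structure. Poly-A RNA was sequenced from primary mouse neurons of 2 genotypes, Nuak1 knockout (KO, constitutive) and wild type (WT), harvested after 5 days in vitro, with 4 libraries each and, per the study's methods, 4 animals per condition. The gene is inactivated in every cell of the animal and not only from neurons, and no treatment is named for either group. The labels name the tissue as cortex or hippocampus, while the series' own text speaks of cortical neurons grown without serum, a condition that limits astrocytes. Each library also has a lane label (KO1, KO4, WT1 and WT3 on lane A, the other 4 on lane B) and a strain label (BJ for KO1, KO2 and KO3, BK for KO4, WT2 and WT4, BO for WT1 and BQ for WT3). The meaning of the strain codes is not given in the sources used here. NUAK1 is a kinase that the study linked to axon branching, and the comparison of KO with WT asks which transcripts differ between cultures that lack it and cultures that have it.

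Mitosis parts copied chromosomes into daughter cells. CDK1 bound to cyclin B drives entry, kinetochores tie the chromosomes to spindle microtubules, the spindle checkpoint holds back the anaphase-promoting complex until all are attached, and destruction of securin and cyclin B then frees separase and opens the way to cytokinesis. Transcripts of these genes accumulate in cells that approach division and are kept low in resting cells. Neurons do not divide, so in cultures of embryonic cortex these transcripts are usually taken to mark progenitors and glial precursors that still cycle. In bulk libraries, fewer cells of a type and less RNA per cell cannot be told apart.

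Library totals ran from 31247078 to 67155004 counts, and a member had between 54 and 4215 counts in a library, with 5 of 46 members under 100 in at least 1 library. Levels are given below as CPM, the gene's count scaled to the library's total of gene counts, and levels between genes are compared only per kilobase of exon. Nuak1 itself read 2.47, 2.72, 1.96 and 2.35 CPM in KO1 to KO4 and 51.6, 68.5, 82.6 and 75.3 CPM in WT1 to WT4, so every library matched its genotype label (log2 fold change −4.89, SE 0.13; by edgeR's quasi-likelihood test with Benjamini-Hochberg adjustment, adjusted p 1.24e-07). The 14 neuron markers summed to between 7937 and 9245 CPM in KO libraries and between 8001 and 8771 CPM in WT libraries, with none at 0. KO1 and WT1 stood apart from the other 6 libraries in base composition, and WT3 stood apart within WT in the level of the mitosis genes, so the results that rest on these libraries are given with and without them.

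The promoters of the mitosis genes shared sequence features that the choice of genes did not use. The sequence of 250 bases before to 50 bases after the annotated start was at hand for 38 of 46 members in the RefSeq table for GRCm38.p6. It was searched on both strands for the cell cycle genes homology region (CHR; letters TTTGAA or TTCGAA), an element known to be bound by the MuvB complexes that time mitotic transcription, and for the CCAAT box (letters CCAAT), which NF-Y binds. These letters were in the window as follows: a CHR in 30 of 38 members (78.9%, against 13.2% of 9952 tested genes), a CCAAT box in 27 (71.1%, against 38.9%), and both in 25 (65.8%, against 5.68%). In all 25 a CHR lay on the 3′ side of a CCAAT box, at a median spacing of 33 bases, whereas 297 of the 565 tested genes with both motifs (52.6%) had this order. A CHR lay within 50 bases before the start or further downstream in 28 of 38 members (73.7%) and in 3.27% of tested genes, and 18 members held 2 or more CCAAT boxes. The windows of 6 members, Pttg1, Mad2l1, Nuf2, Birc5, Nusap1 and Ncaph, held neither. A match of letters is a description of the window and not a mapped binding site.

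**Figure D1:**
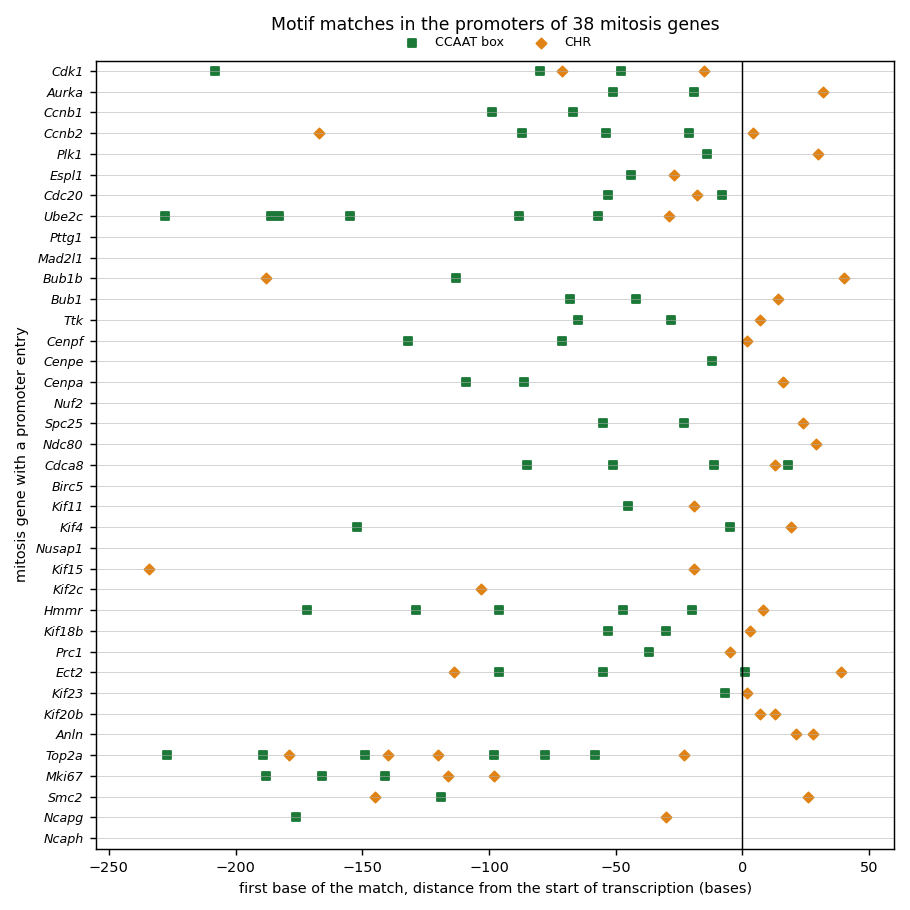
Positions of the CHR and CCAAT box matches in the promoter window of each mitosis gene with a RefSeq entry; the x axis is the distance in bases of the first base of a match from the start of transcription. CHR matches gathered near the start (median −1.5) and CCAAT boxes mostly upstream of them (median −67.5).

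The 250 bases upstream of the start of 6 members are printed 5′ to 3′ on the coding strand, with CHR and CCAAT box letters of either strand in capitals (a CCAAT box on the other strand reads ATTGG, and the CHR letters there read TTCAAA or TTCGAA). The 6 were picked after the matches were known. Cdk1 and Top2a show CCAAT boxes with a CHR on their 3′ side, Cdc20 has its CHR, at −18, between a CCAAT box at −53 and another at −8, and Cdca8 shows CCAAT boxes whose CHR, at +13, falls beyond the printed stretch. Ccnb1 and Kif2c each hold only a single kind of motif.

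Cdk1 (chr10:69352913-69353162, minus strand): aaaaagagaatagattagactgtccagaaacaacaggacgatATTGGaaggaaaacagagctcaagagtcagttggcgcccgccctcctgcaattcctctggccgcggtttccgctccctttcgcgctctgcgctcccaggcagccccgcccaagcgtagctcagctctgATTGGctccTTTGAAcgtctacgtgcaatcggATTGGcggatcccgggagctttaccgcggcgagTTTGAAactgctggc
Cdc20 (chr4:118437344-118437593, minus strand): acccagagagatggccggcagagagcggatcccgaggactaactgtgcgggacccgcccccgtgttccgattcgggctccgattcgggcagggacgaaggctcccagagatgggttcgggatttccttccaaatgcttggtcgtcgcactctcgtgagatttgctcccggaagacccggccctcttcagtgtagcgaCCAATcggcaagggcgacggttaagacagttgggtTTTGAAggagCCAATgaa
Top2a (chr11:99024190-99024439, minus strand): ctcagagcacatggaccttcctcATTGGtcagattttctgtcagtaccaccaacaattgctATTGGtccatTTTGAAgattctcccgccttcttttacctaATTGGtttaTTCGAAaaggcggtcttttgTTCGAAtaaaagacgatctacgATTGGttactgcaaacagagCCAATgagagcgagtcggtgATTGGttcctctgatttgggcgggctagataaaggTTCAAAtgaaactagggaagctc
Cdca8 (chr4:124936918-124937167, minus strand): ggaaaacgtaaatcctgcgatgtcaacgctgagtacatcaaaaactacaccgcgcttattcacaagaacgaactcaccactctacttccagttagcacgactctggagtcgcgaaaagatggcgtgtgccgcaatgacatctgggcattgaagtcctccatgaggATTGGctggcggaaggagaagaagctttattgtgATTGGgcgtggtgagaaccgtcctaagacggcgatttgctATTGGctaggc
Ccnb1 (chr13:100786487-100786736, minus strand): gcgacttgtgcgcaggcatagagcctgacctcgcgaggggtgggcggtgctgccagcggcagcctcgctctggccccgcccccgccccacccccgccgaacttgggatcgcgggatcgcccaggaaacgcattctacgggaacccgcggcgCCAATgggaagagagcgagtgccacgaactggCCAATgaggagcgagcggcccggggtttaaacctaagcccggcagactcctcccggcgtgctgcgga
Kif2c (chr4:117178773-117179022, minus strand): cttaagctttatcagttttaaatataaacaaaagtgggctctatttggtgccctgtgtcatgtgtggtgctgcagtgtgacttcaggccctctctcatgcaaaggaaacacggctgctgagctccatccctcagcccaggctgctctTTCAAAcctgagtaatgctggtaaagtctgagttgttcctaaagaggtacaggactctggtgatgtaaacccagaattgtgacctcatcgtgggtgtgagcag

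Top2a carried 4 CHR and 6 CCAAT matches. Ccnb1 had a pair of CCAAT boxes, at −99 and −67, and no CHR letters in its window. The lone CHR of Kif2c, at −103, belongs to a start that lies inside the annotated span of the gene (chromosome 4, 117159633 to 117182624). Aurkb had no entry in the table.

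Every mitosis gene was higher on average in KO than in WT, but by amounts that no single gene carried past the threshold. All 46 passed the filter on low counts, all 46 had a positive log2 fold change (53.8% of the 16272 tested genes did), and the median was 0.38 (range 0.11 to 0.66) beside a median of 0.015 over all tested genes. In the edgeR quasi-likelihood test 0 of 46 passed an adjusted p of 0.05 (0.0492% of all tested genes did, 0.0123% as higher in KO), and the lowest adjusted p was 0.36, for Ccnb1. An unadjusted p under 0.05, higher in KO, was reached by 19 of 46 (41.3%) against 4.87% of all tested genes (10.6% in either direction), in a model with genotype and 1 surrogate variable. That count was 6 without a surrogate variable (2.52% of all tested genes in either direction), 9 with 2 (12.1%) and 36 with 3 (17.4%). It was 1 without WT1 (5.45%), 5 without KO4 (9.72%), 10 without KO3 (6.97%) and 31 without WT4 (13.3%), so without WT1 or KO4 the share of the members was below or near that of all tested genes. DESeq2 called 0 of 46 as well (1.03% of all tested genes), with 23 under an unadjusted p of 0.05 (3.75% higher in KO among all tested genes). Limma-voom called 0, with 20 under that p (10.5% of all tested genes in either direction). Counts by role and by list given below are to be read against the edgeR shares over all tested genes. These were 0.0492% called and 4.87% under an unadjusted p of 0.05, higher in KO. On counts simulated for this comparison over 16081 genes, the same edgeR test called 95% of 100 genes changed by 2 on the log2 scale. It called 2% of 100 genes changed by 0.5, which is near the size seen here. The simulated counts were drawn gene by gene and held no shift shared between genes, such as that of KO1 and WT1. The real data differ from them in this.

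Summed over the 46 genes, the level was 913, 665, 655 and 640 CPM in KO1 to KO4 and 719, 552, 316 and 613 CPM in WT1 to WT4. KO1 was the highest library and WT3 the lowest, and the groups overlapped because WT1 lay above KO2, KO3 and KO4. KO averaged 718 ± 130 CPM and WT 550 ± 171 CPM (mean ± SD of 4 libraries), a ratio of 1.31. Without WT3 the WT mean was 628 ± 84.2 CPM (SD, n = 3) and the ratio was 1.14. Mitosis transcripts made up 0.0316 to 0.0913% of all counts. Mki67, the proliferation antigen Ki-67, and Top2a, the topoisomerase that untangles sister chromatids, together held 21.6% of the summed level.

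**Figure D2:**
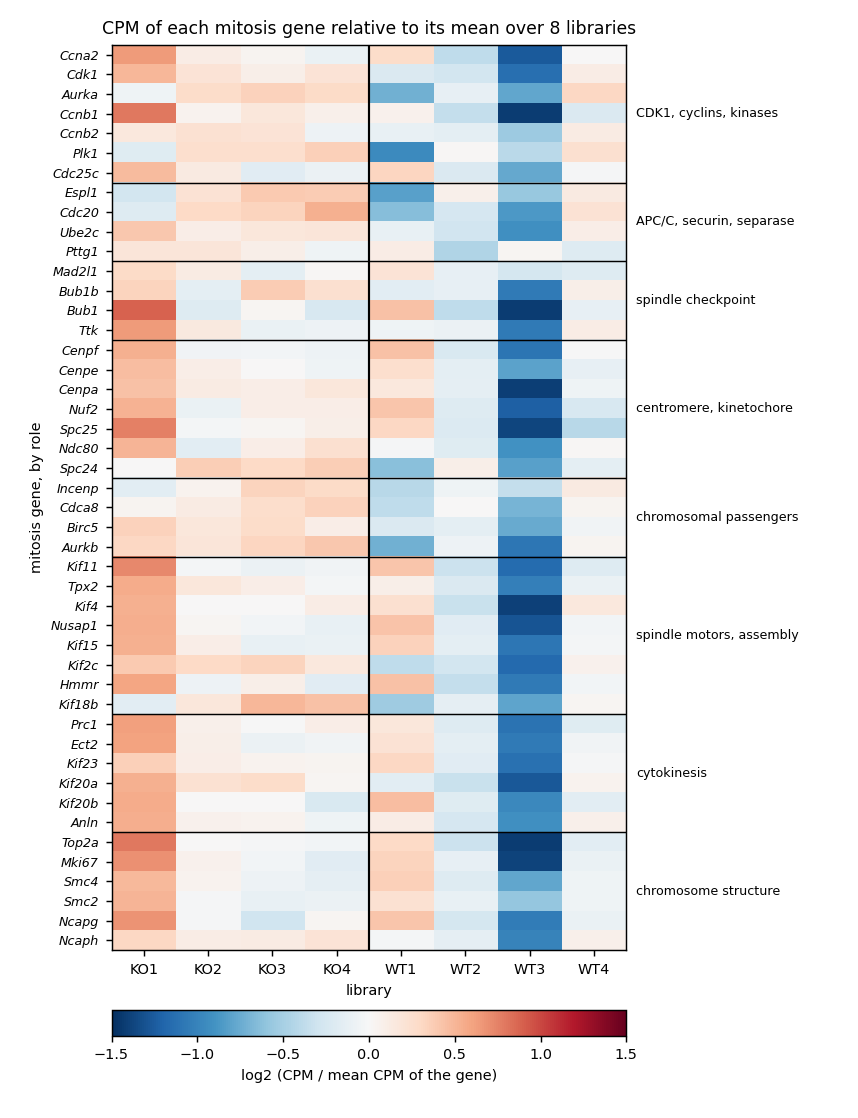
Level of each mitosis gene in each library as log2 of its CPM over its mean over the 8 libraries, with genes grouped by role and KO libraries left of the line. WT3 is the lowest of the 8 libraries in 42 of 46 genes and KO1 the highest in 34.

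The mitotic kinases and cyclins were led by Ccnb1, cyclin B1 (ENSMUSG00000041431, chromosome 13, 100778739 to 100786486 in GRCm38.p6). Ccnb1 read 8.56, 5.12, 5.56 and 5.21 CPM in KO1 to KO4 and 5.15, 3.86, 1.85 and 4.26 CPM in WT1 to WT4. The groups overlapped only in that WT1 lay just above KO2, and the fold change on the log2 scale was 0.65 (SE 0.20, adjusted p 0.36, edgeR). Its partner kinase Cdk1 (chromosome 10, 69335146 to 69352912) read 16.1, 13.1, 12.1 and 13.1 CPM in KO and 9.82, 9.41, 5.20 and 12.3 CPM in WT, with WT4 between the KO values and a log2 fold change of 0.52 (SE 0.20). Ccna2, cyclin A2, the gene of this role with the highest level per kilobase of exon, read 39.6, 27.5, 26.1 and 23.7 CPM in KO and 30.7, 19.5, 10.6 and 25.4 CPM in WT, with a log2 fold change of 0.41 (SE 0.17). WT1 was above 3 of the 4 KO libraries in Ccna2. The kinases Plk1, which drives centrosome maturation and mitotic entry, and Aurka, which builds the spindle poles, had another order of libraries. Plk1 read 3.56, 4.80, 4.80 and 5.17 CPM in KO and 2.08, 4.08, 3.06 and 4.79 CPM in WT, with KO1 lowest in its group and WT1 lowest of all. Aurka likewise was lowest in KO1 among KO libraries, at 5.06 against 6.42 to 6.73 CPM, and its log2 fold change was 0.44 (SE 0.22). Ccnb2 and Cdc25c, the phosphatase that activates CDK1, had the smallest differences of this role, at 0.24 and 0.18. In the role as a whole 7 of 7 genes were higher and 3 had an unadjusted p under 0.05, with a median of 0.41.

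Of the anaphase-promoting complex pathway, 3 of 4 genes had an unadjusted p under 0.05. Cdc20, the activator that the spindle checkpoint restrains, read 6.01, 8.38, 8.61 and 9.91 CPM in KO and 4.38, 5.73, 3.78 and 7.92 CPM in WT, so that WT4 lay above KO1 (log2 fold change 0.56, SE 0.22, adjusted p 0.421, edgeR). Ube2c, the ubiquitin-conjugating enzyme of the complex, read 6.81, 5.49, 5.77 and 5.83 CPM in KO and 4.77, 4.21, 2.73 and 5.50 CPM in WT, where WT4 and KO2 differed by less than the spread within either group. Espl1, separase, which cuts cohesin, read 7.24, 10.2, 11.5 and 11.4 CPM in KO and 4.99, 9.26, 5.92 and 9.69 CPM in WT, with a log2 fold change of 0.41 (SE 0.18). Pttg1, securin, was the exception to the low level of WT3: it read 5.35, 5.35, 5.01 and 4.52 CPM in KO and 5.09, 3.45, 4.80 and 4.13 CPM in WT, and WT3 stood at 1.14 times the mean of the other WT libraries. Its log2 fold change was 0.17 (SE 0.13). The core subunits of the complex, which were no members, also serve outside mitosis. Of 14 tested, 10 were higher in KO, 0 were called, and their median was 0.048. An unadjusted p under 0.05 was reached by 1 (7.14%), against 10.6% of all tested genes in either direction.

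In the spindle checkpoint 4 of 4 genes were higher in KO and 0 of 4 had an unadjusted p under 0.05. Bub1, the checkpoint kinase at kinetochores, read 16.2, 7.69, 8.94 and 7.41 CPM in KO and 11.9, 6.72, 3.27 and 8.08 CPM in WT. KO1 alone exceeded WT1, and KO1 was 2.02 times the mean of the other KO libraries, the largest such ratio among the 46 genes. Bub1b, which encodes BUBR1, a part of the mitotic checkpoint complex, read 15.6, 11.2, 16.1 and 14.7 CPM in KO and 11.1, 11.4, 5.92 and 13.1 CPM in WT. Mad2l1, the MAD2 protein that binds CDC20, had the smallest fold change of all members: 20.7, 18.5, 15.4 and 17.3 CPM in KO and 19.6, 15.7, 14.2 and 15.0 CPM in WT, a log2 fold change of 0.11 (SE 0.08). Ttk, the kinase MPS1, had a log2 fold change of 0.31 (SE 0.20).

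Centromere and kinetochore genes were higher in KO in 7 of 7 cases, with a median of 0.38 and 3 under an unadjusted p of 0.05. Cenpf, an outer kinetochore protein, read 34.7, 23.2, 23.3 and 22.7 CPM in KO and 32.5, 20.5, 11.2 and 23.9 CPM in WT. Both WT1 and WT4 lay above KO2 to KO4 in Cenpf, and without WT3 the ratio of the means fell from 1.18 to 1.01. Cenpe, the kinesin that carries chromosomes to the spindle equator, read 23.7, 18.3, 17.2 and 16.4 CPM in KO and 20.4, 15.5, 9.84 and 15.7 CPM in WT (log2 fold change 0.26, SE 0.11). The NDC80 complex, which grips microtubules, did not behave as a unit in KO1 and WT1. Its subunit Spc25 read 9.23, 5.35, 5.58 and 5.81 CPM in KO and 6.78, 4.75, 2.10 and 4.11 CPM in WT, highest in KO1 and, within WT, in WT1. Spc24, which forms a dimer with SPC25, read 2.67, 3.44, 3.26 and 3.44 CPM in KO and 1.73, 2.83, 1.51 and 2.40 CPM in WT, lowest in KO1 among the KO libraries. Their log2 fold changes between genotypes were 0.52 (SE 0.20) and 0.55 (SE 0.21). The other subunits, Ndc80 and Nuf2, were at 0.38 and 0.37, and Cenpa, the histone variant of centromeres, was at 0.45.

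Genes of the chromosomal passenger complex, which corrects faulty attachments and later guides cytokinesis, were higher in KO in 4 of 4 cases, with a median of 0.42 and 3 under an unadjusted p of 0.05. All CPM of KO lay above all CPM of WT for 5 of 46 members (10.9%, against 1.54% of all tested genes), and 3 of these 5 were passengers. The catalytic subunit Aurkb (ENSMUSG00000020897, chromosome 11, 69045624 to 69051664) read 6.01, 5.52, 6.08 and 6.40 CPM in KO and 2.94, 4.62, 2.29 and 4.98 CPM in WT. Its log2 fold change, 0.66 (SE 0.23, adjusted p 0.393, edgeR), was the largest of the members. Birc5, survivin, read 8.74, 7.78, 8.36 and 7.36 CPM in KO and 5.95, 6.21, 4.09 and 6.66 CPM in WT (log2 fold change 0.45, SE 0.15, adjusted p 0.366, edgeR). Cdca8, borealin, read 8.45, 8.93, 9.84 and 10.4 CPM in KO and 6.30, 8.23, 5.06 and 8.42 CPM in WT, so the groups were parted by the narrow gap between WT4 and KO1. The scaffold Incenp overlapped, at 18.0, 20.8, 25.2 and 24.4 CPM in KO and 15.0, 19.2, 15.6 and 22.0 CPM in WT. Without WT3 the number of members whose groups did not overlap was again 5 (3.56% of all tested genes).

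Among the spindle motors and assembly factors 8 of 8 were higher in KO and 4 had an unadjusted p under 0.05, with a median of 0.36. Kif2c, which depolymerizes microtubules at centromeres, was the fourth gene whose groups did not overlap, at 9.97, 9.31, 9.59 and 8.45 CPM in KO and 5.86, 6.27, 3.38 and 7.95 CPM in WT (log2 fold change 0.63, SE 0.21, adjusted p 0.369, edgeR). Kif11, the motor that pushes the spindle poles apart, read 41.1, 24.4, 23.5 and 24.0 CPM in KO and 33.3, 20.0, 11.2 and 21.8 CPM in WT. KO1 and WT1 were the highest libraries of Kif11, and WT1 lay above KO2 to KO4. Tpx2, which nucleates spindle microtubules, read 36.0, 27.5, 26.3 and 23.9 CPM in KO and 26.1, 21.1, 12.1 and 22.9 CPM in WT (log2 fold change 0.42, SE 0.14). Kif18b, a motor that shortens astral microtubules, was at 0.54 (SE 0.19). The remaining members of this role, Kif4, Kif15, Nusap1 and Hmmr, had log2 fold changes from 0.24 to 0.37.

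Cytokinesis factors were higher in 6 of 6 cases, with a median of 0.31 and 2 under an unadjusted p of 0.05. Prc1, which bundles the microtubules of the central spindle, read 29.8, 20.6, 19.4 and 20.8 CPM in KO and 21.9, 17.1, 9.00 and 17.2 CPM in WT (log2 fold change 0.43, SE 0.16, adjusted p 0.4, edgeR). Kif20a, the central spindle motor that brings PLK1 there, read 15.1, 12.2, 12.6 and 10.6 CPM in KO and 9.31, 8.26, 4.32 and 10.8 CPM in WT, and only WT4 reached into the KO range (log2 fold change 0.58, SE 0.21). Ect2, which activates RhoA at the cleavage site, read 16.9, 11.8, 10.4 and 10.7 CPM in KO and 12.9, 9.98, 5.33 and 10.7 CPM in WT, with WT1 above KO2 to KO4. Kif23, Kif20b and Anln, which encodes anillin, had log2 fold changes of 0.29, 0.21 and 0.31.

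The 6 genes of chromosome structure were all higher in KO, with a median of 0.30, the lowest of the 8 roles, and 1 of 6 under an unadjusted p of 0.05. Top2a (ENSMUSG00000020914, chromosome 11, 98992947 to 99024199) read 119, 68.9, 67.4 and 66.6 CPM in KO and 84.3, 54.8, 25.6 and 61.3 CPM in WT (log2 fold change 0.47, SE 0.19, adjusted p 0.438, edgeR). Mki67 read 109, 71.5, 66.1 and 60.7 CPM in KO and 85.8, 62.8, 26.1 and 63.5 CPM in WT (log2 fold change 0.33, SE 0.20). In both genes WT1 was the second highest of all libraries and WT3 the lowest, and KO2, KO3 and KO4 lay close together. Of the condensin subunits, which compact chromosomes, Ncaph was the fifth member without overlap, at 9.83, 8.53, 8.59 and 9.12 CPM in KO and 7.74, 7.24, 3.94 and 8.37 CPM in WT. The condensin ATPases Smc2 and Smc4, which also act outside mitosis, were at 0.14 (SE 0.09) and 0.18 (SE 0.10), and Ncapg was at 0.27 (SE 0.16). Per kilobase of exon the members ran from 1.17 CPM (Ccnb1) to 8.06 CPM (Smc4), with a median of 2.18.

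**Figure D3:**
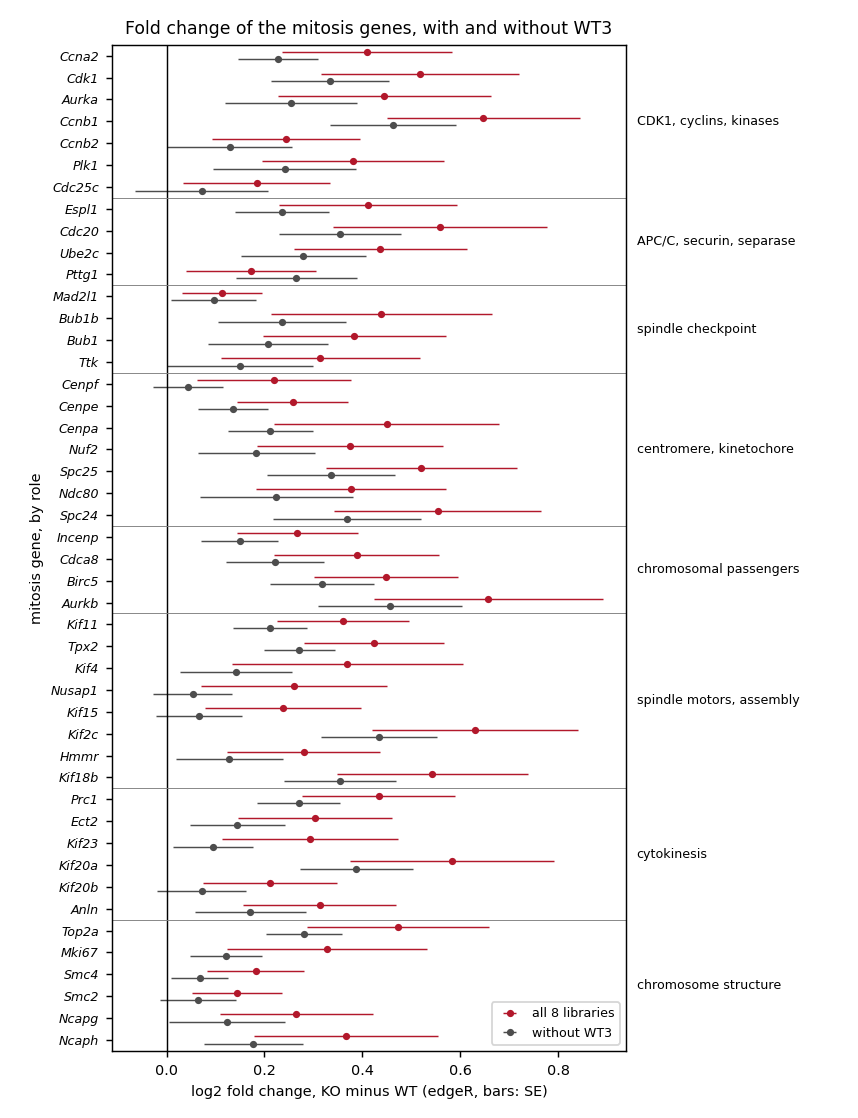
Log2 fold change between KO and WT for each mitosis gene (x axis, points, bars are SE, edgeR) in all 8 libraries and without WT3. Every point is right of 0 in both fits, and the median moves from 0.38 to 0.21 without WT3.

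The difference between genotypes was smaller when WT3 was left out. This library was the lowest of the 8 libraries in 42 of 46 members (WT1 in 3 and WT2 in 1), and its level was a median of 0.50 times the mean of the other WT libraries (range 0.37 to 1.14), under 0.6 times in 33 members. Its summed level was 0.503 times that of the other WT libraries. Every KO library lay above WT3 in 45 members, above WT2 in 35, above WT4 in 18 and above WT1 in 17. Shares over all tested genes were not computed for these counts or for the count of members lowest in WT3. Over the other 7 libraries the median log2 fold change was 0.21 and all 46 genes still had a positive value, 0 were called (0.554% of all tested genes were) and 18 had an unadjusted p under 0.05 (6.93% of all tested genes were higher at that p). The ratio of KO to WT means was a median of 1.32 with WT3 (range 1.12 to 1.62) and 1.16 without it (range 1.01 to 1.44).

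KO1 and WT1 were high together in many members and low together in others, along the base composition of the transcripts. In 26 members KO1 was above each other KO library and WT1 above WT2 and WT4, while in 8 members (Plk1, Aurka, Cdc20, Espl1, Spc24, Incenp, Cdca8 and Kif18b) both were below. The median G+C content of the longest coding transcript was 43.1% in the first set and 54.9% in the second. Across the 46 members, G+C content and the log2 ratio of KO1 to the other KO libraries had a Pearson correlation of −0.848, and for WT1 over WT2 and WT4 it was −0.845. Across 13636 tested genes the same correlations were −0.742 and −0.727, so the relation was not confined to mitosis genes. The genes of such a correlation share their libraries and are not independent replicates. Median log2 fold changes between genotypes were 0.31 in the first set of 26 and 0.43 in the set of 8, and over the members G+C content and fold change had a correlation of 0.524 (0.123 over all tested genes). Compared within the pair, KO1 was above WT1 in 46 of 46 members, with a ratio of the summed levels of 1.27. The matching share of all tested genes was not computed. With both left out, in a fit that also had no surrogate variable, the median log2 fold change was 0.39, with all 46 positive, and 2 had an unadjusted p under 0.05, a share near the 4.05% over all tested genes (6 members when the surrogate variable alone was dropped).

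**Figure D4:**
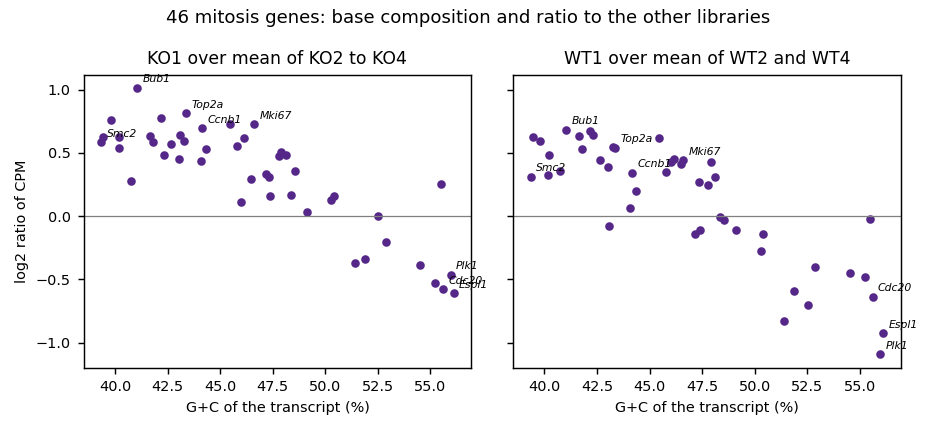
Log2 ratio of CPM (y axis) of KO1 to the mean of KO2 to KO4 (left) and of WT1 to the mean of WT2 and WT4 (right) against the G+C percentage of the transcript for the 46 mitosis genes. Both ratios fall from above 0 for G+C-poor genes such as Bub1 to below 0 for G+C-rich genes such as Plk1.

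With KO1, WT1 and WT3 all left aside, the remaining libraries were KO2, KO3 and KO4 at a mean summed level of 653 ± 12.4 CPM (SD, n = 3) and WT2 and WT4 at 583 ± 42.9 CPM (SD, n = 2), a ratio of 1.12. In these 5 libraries, again fitted without a surrogate variable, the median log2 fold change was 0.15, 44 of 46 genes were positive and 4 had an unadjusted p under 0.05, a share near the 8.51% of all tested genes. KO2 and KO3 were both above both of WT2 and WT4 in 26 members. For this count and those of KO4 that follow, the share over all tested genes was not computed. KO4, which shares the strain label BK with WT2 and WT4, was above WT2 in 44 members and above WT4 in 29. BK was the single strain label present in both genotypes, so genotype and strain label cannot be told apart in the other 5 libraries.

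Each lane held 2 libraries of each genotype, and KO1, WT1 and WT3 were all on lane A. The fits by lane and of the interaction held no surrogate variable. On lane A the median log2 fold change was 0.64, with 45 of 46 positive and 1 under an unadjusted p of 0.05, higher in KO (0.129% of all tested genes). On lane B it was 0.13, with 42 of 46 positive, 0 called by edgeR (0.588% of all tested genes were) and 4 under that p (5.6% of all tested genes). Tested directly, the interaction of genotype and lane was past the adjusted threshold in 0 of 46 members (edgeR; 0% of all tested genes) and under an unadjusted p of 0.05 in 1, Aurkb (1.57% of all tested genes). The estimate for lane B minus lane A was negative in 45 members, with a median of −0.50.

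Further genes of mitosis, 62 that were no members, were read in the same way. Of these, 59 were higher in KO, 0 were called (0.0492% of all tested genes) and the median log2 fold change was 0.26. An unadjusted p under 0.05 was reached by 15 (24.2%), all higher in KO, against 4.87% of all tested genes. The smallest p among them was at Pimreg (0.49, SE 0.14, adjusted p 0.333, edgeR) and Nek2, a centrosomal kinase (0.48, SE 0.14, adjusted p 0.333, edgeR). Nek2 read 5.09, 4.63, 4.55 and 4.65 CPM in KO and 3.74, 3.04, 2.54 and 3.90 CPM in WT, with no overlap. Cdca5, sororin, which protects cohesion, read 3.28, 3.41, 3.03 and 3.06 CPM in KO and 2.24, 2.16, 1.30 and 2.45 CPM in WT, also with no overlap. In all, 9 of these 62 genes had every KO value above every WT value (1.54% of all tested genes). WT3 was again low in this list, at 0.779 times the summed level of the other WT libraries, beside 0.503 for the 46 members. Such sums are weighted toward the highest genes: the 62 had a median level of 5.86 CPM and a mean sum of 892 CPM in WT. A ratio per gene is not given for the 62, so the 2 ratios do not rank the lists.

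The regulators that switch mitosis genes on and off were described next. Of 16 transcription regulators of these genes, 15 were higher in KO with a median of 0.087, and 0 were called. An unadjusted p under 0.05 was reached by 2 (12.5%), against 10.6% of all tested genes in either direction and 4.87% higher in KO. Foxm1, the activator of late cell cycle genes, read 17.3, 18.9, 21.5 and 20.8 CPM in KO and 12.9, 15.5, 9.25 and 17.6 CPM in WT (log2 fold change 0.47, SE 0.18, adjusted p 0.42, edgeR). E2f4, a repressor of resting cells, was at 0.31 (SE 0.10). Among inhibitors of CDKs 5 genes were tested, 2 were higher and 3 lower in KO, 0 were called and the median was −0.025. An unadjusted p under 0.05, higher in KO, was reached by 1 (4.87% of all tested genes). All KO values lay above all WT values in 1 (1.54% of all tested genes). Their summed level lay between 127 and 139 CPM in KO and was 122, 114, 178 and 134 CPM in WT1 to WT4, so WT3 was the highest library in this list, at 1.44 times the mean of the other WT libraries. The inhibitors Cdkn1a and Cdkn1c were picked after their values were seen. Cdkn1a, p21, read 46.8 CPM in WT3 and 14.6 to 30.8 CPM in the other 7 libraries, and Cdkn1c, p57, read 7.07 CPM in WT3 and 1.91 to 3.19 CPM elsewhere.

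Genes of DNA replication, which act before mitosis in the cycle, were also mostly higher, with 34 of 35 higher in KO, 0 called and a median of 0.21. An unadjusted p under 0.05 was reached by 11 (31.4%), all higher in KO, against 4.87% of all tested genes. The summed level of this list lay between 511 and 549 CPM in KO and was 438, 435, 374 and 517 CPM in WT1 to WT4. Mcm5, a subunit of the replicative helicase, read 18.0, 19.9, 20.3 and 22.7 CPM in KO and 11.1, 14.9, 10.9 and 19.3 CPM in WT (log2 fold change 0.50, SE 0.17, adjusted p 0.369, edgeR). Only WT4 reached into the KO range of Mcm5.

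**Figure D5:**
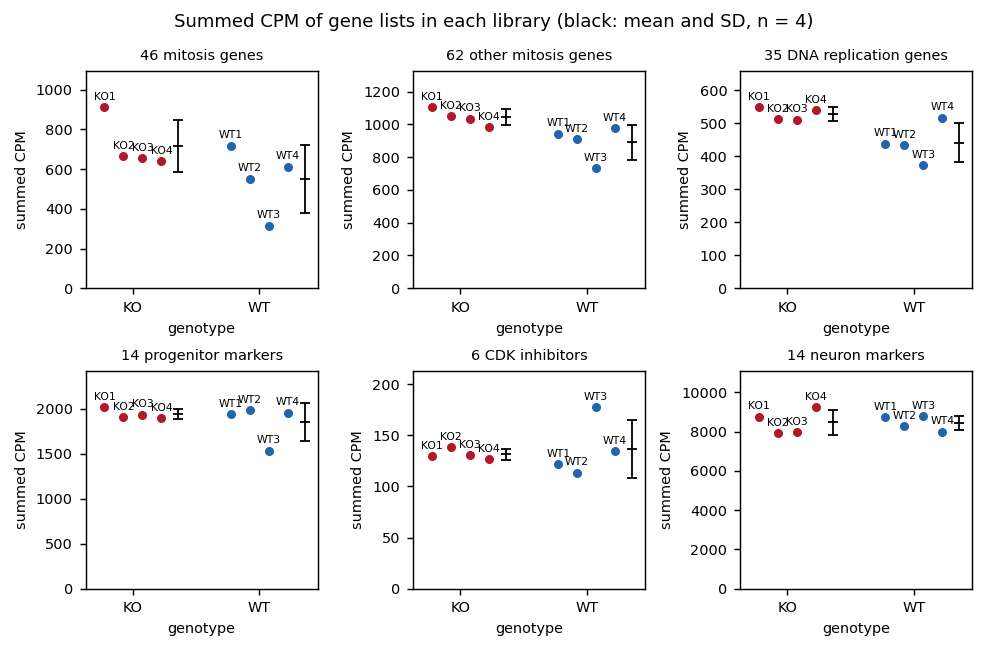
Summed CPM (y axis) of 6 gene lists in each of the 8 libraries, by genotype, with the mean and SD of each genotype in black (n = 4). WT3 is low for the mitosis, replication and progenitor lists and high for the CDK inhibitors, while the neuron markers lie between 7937 and 9245 CPM in all libraries.

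Markers of the cell types that can divide in such cultures were read beside the mitosis genes in every library. The 14 progenitor markers summed to between 1900 and 2018 CPM in KO and read 1941, 1987, 1535 and 1959 CPM in WT1 to WT4, with none at 0. WT3 was thus the low library here as well, at 0.782 times the others, and without it the means of KO and WT differed by a ratio of 0.989. Of these markers 9 of 14 were higher in KO with a median of 0.016, and 0 were called by edgeR. Astrocyte markers ranged from 546 to 1244 CPM over the KO and from 665 to 942 CPM over the WT libraries (7 of 10 higher, median 0.084), and those of oligodendrocyte precursors from 800 to 892 and from 760 to 905 CPM (5 of 9 higher, median 0.016). Microglia markers were sparse and ranged from 21.3 to 88.3 CPM among KO and from 26.3 to 49.96 CPM among WT libraries, with 10 of 11 tested markers higher, a median of 1.29 and 0 called. Tmem119 was at 0 counts in KO1 and all 4 WT libraries, and only 2 of the 14 listed microglia markers were at 0 in any library. Endothelial and fibroblast markers ranged from 328 to 453 CPM among KO and from 258 to 456 CPM among WT libraries (5 of 10 tested higher), with Cdh5 at 0 in 4 libraries. WT3 was the lowest WT library in the astrocyte, microglia and endothelial and fibroblast lists too, at 0.779, 0.710 and 0.622 times the mean of the other WT libraries, and stood at 0.909 times for oligodendrocyte precursors and 1.42 times for interneurons. Interneuron markers had a median of 0.25 (7 of 10 higher) and neuron markers of 0.0012 (7 of 14 higher). The part of any of these lists in the difference of the mitosis genes was not tested.

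Of the 46 members, 20 overlap another annotated gene and 8 a protein-coding one: Ccna2, Aurka, Cdc20, Nusap1, Kif20a, Prc1, Anln and Ncapg. Whether the counting used the strand is not given in the sources used here, so reads shared between such neighbors may be dropped for these 8.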

How the data were processed

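Poly-A RNA of 8 cultures was sequenced from stranded libraries. The authors trimmed reads with cutadapt 1.10, discarded rRNA reads (Bowtie2 2.2.8), aligned with STAR 2.5.3a to mm10, counted uniquely aligned reads per gene with HTSeq 0.6.1p1 in union mode on an Ensembl annotation, and deposited raw counts, which were used as deposited. Labels and methods differ on read length and on the sequencer. Totals were 31247078 to 67155004 counts per library. Low genes were filtered by genotype (filterByExpr), which left 16272 genes. The test was edgeR 4.0.16 (robust quasi-likelihood, TMM, genotype plus 1 surrogate variable from sva 3.50.0) in R 4.3.3, with Benjamini-Hochberg adjustment over all tested genes and a threshold of 0.05. It was tested on simulated data. DESeq2 1.42.0, limma 3.58.1, other scalings, filters, covariates, lanes and left-out libraries were tried (25 alternatives). SE is the log2 fold change divided by the root of F. In the main fit, p-values measure the spread between cultures left after the surrogate variable, which was estimated from the same libraries. This variable set KO1 (−0.558) and WT1 (−0.621) apart from the others (0.048 to 0.392), so their shared shift is not part of that spread. Whether each library is a separate animal is known only from the stated 4 animals per condition. No pair of libraries agreed within sampling noise (least chi-square per degree of freedom 18.8).

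The members and all lists were chosen with earlier results of these data known. All 46 members could be named. Of other lists, at most 4 genes with the smallest p were named, unless said otherwise, and markers at 0 counts were named for that. Of 264 listed genes 263 had an identifier, 12 through a synonym. Gene coordinates and promoters are RefSeq's (GRCm38.p6). Exon lengths and G+C content come from GENCODE M1. The result of 1 gene of these lists was left out and is not reported here.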

Additional observations from a re-analysis of the deposited data

Results flagged for a closer look

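In 54 sets of 4 libraries of a genotype, for the summed level and the members described most closely, 7 sets had an extreme library whose gap to the nearest other library, divided by the range of the 4, exceeded Dixon's critical value at the 95% level. Chance gives about 1 such set in 20, which is 2.7 here, and the sets share their libraries. All 7 were KO1 among the KO libraries. The summed level of the mitosis genes was 913 CPM in KO1 against 665 CPM in the next library. Top2a stood at 119 against 68.9 CPM, Kif11 at 41.1 against 24.4 CPM, Cenpf at 34.7 against 23.3 CPM, Prc1 at 29.8 against 20.8 CPM, Spc25 at 9.23 against 5.81 CPM and Ccnb1 at 8.56 against 5.56 CPM. All 6 of these genes belong to the 26 in which WT1 was also above WT2 and WT4. WT3, the low library of WT, did not exceed the critical value in any set.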

How the results depend on the processing

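For the mitosis genes the median difference on the log2 scale stayed above 0 in 25 of 25 alternatives, between 0.13 (lane B alone) and 0.64 (lane A alone), and that of the other mitosis genes between 0.069 and 0.45. Over all 46 members and 25 alternatives, 1134 of 1150 values were positive, and the 16 negative ones fell on 12 members. These values come from the same 8 libraries and are not independent. Of all tested genes, between 49.5% (lane A alone) and 63.3% (library totals alone) were positive. With 3 surrogate variables 2 members were called (edgeR), Top2a (0.41, adjusted p 0.0339) and Prc1 (0.39, adjusted p 0.0464), and 122 genes in all. When the strain label replaced the surrogate variable, 9 members were negative, down to −0.099 for Ttk and with Bub1 at −0.0070 and Mki67 at −0.072. The median was 0.18. That fit compares the genotypes only through KO4 against WT2 and WT4, since BK alone held both genotypes, so its KO side is KO4 alone. On lane B alone 4 were negative, on lane A alone 1, and without KO1, WT1 and WT3 2. Nuak1 on lane A alone was at −4.81 without passing the threshold (adjusted p 0.849, edgeR), but passed on lane B alone (−5.03, adjusted p 1.18e-09, edgeR), with 2 residual degrees of freedom in each. The cause of these changes was not tested.

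The number of members under an unadjusted p of 0.05, 19, depended on the covariates and on single libraries. It was 6 without a surrogate variable, 9 with 2 and 36 with 3. Further fits without a surrogate variable, to be read against the 6, gave 7 with the lane as a term (2.94% of all tested genes), 0 with the strain label as a term (1.91%), 1 on lane A, 4 on lane B, 2 without KO1 and WT1, and 4 without KO1, WT1 and WT3, an alternative chosen after seeing the data. Leaving out a single library, with the surrogate variable kept, gave 1 (without WT1, 5.45% of all tested genes) to 31 (without WT4, 13.3%). Same-numbered libraries had correlated deviations for numbers 1 and 3 (0.79 and 0.24) but not for 2 and 4 (0.0093 and −0.011), and not every library correlated best with its own number, so the numbers do not pair the cultures. A replicate block without a surrogate variable gave a median of 0.41 with 20 members under an unadjusted p of 0.05 (7.17% of all tested genes) and 0 called, and with a surrogate variable added 0.37, 24 (9.99%) and 0. Genes called in all, 8, ranged from 0 on lane A to 168 by DESeq2, with 91 without WT3, 99 on lane B and 49 without a filter. In the simulated counts, which had this depth and number of cultures but no shift shared between genes, differences of 0.5 on the log2 scale mostly went uncalled.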
